A study of Drosophila melanogaster with 2 samples.

Results

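The peptidoglycan recognition proteins (PGRPs) are the fly's sensors and scavengers of peptidoglycan, the polymer of bacterial cell walls. Some members bind it and start the Toll pathway, which responds mainly to lysine-type peptidoglycan of Gram-positive bacteria and to fungi, or the immune deficiency (IMD) pathway, which responds to diaminopimelic acid-type (DAP-type) peptidoglycan. Others are amidases, enzymes that cleave peptidoglycan and so remove the signal. The 10 PGRP genes described here, of 14001 genes measured, were taken by gene symbol, together with all 31 of their transcripts in the tables (29992 transcripts matched in all). They comprise 6 receptors and regulators (PGRP-SA, PGRP-SD, PGRP-LC, PGRP-LE, PGRP-LA and PGRP-LF) and 4 amidases (PGRP-LB, PGRP-SC2, PGRP-SB1 and PGRP-SB2). The genes were picked with their levels and their ratio between the libraries already known, so all values are given as a description, with no test.

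Transcripts were measured in 2 RNA-seq libraries, replicates 1 and 2, of whole Drosophila melanogaster larvae in the third instar. Both carry HP1c f04929 on each homologue, a mutant allele of a heterochromatin protein gene, and were raised at 25 °C. A second genotype was not analysed here, so no value below compares the mutant with a control. The labels do not say whether the replicates were separate cultures or how many larvae were pooled, so how much of their spread is technical cannot be told. HP1c itself stood at 0.842 TPM (25 reads) in replicate 1 and at 1.08 TPM (42 reads) in replicate 2, which without a control does not check the genotype.

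The libraries held 39745145 and 45177298 estimated reads in replicates 1 and 2, of which ribosomal RNA entries took 12.1% and 2.55%. The PGRP genes together took 11257 and 11439 of these reads. Marker genes of the fat body (6 of 6), gut (12 of 12), haemocytes (10 of 10), trachea (5 of 5), muscle (8 of 8) and neurons (5 of 5) all reached 1 TPM in both libraries, as did 9 of 10 salivary gland genes. Of all 14001 genes measured, 10900 reached 1 TPM in both libraries. In whole larvae, more cells of a type and more RNA per cell cannot be told apart.

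Of the 10 members, 9 reached 1 TPM in both libraries, as did 10900 of all 14001 genes. PGRP-SB2 reached 1 TPM in replicate 1 alone. In TPM, reads corrected for transcript length and scaled to one total in each library, the most abundant member by mean was the amidase gene PGRP-SC2 and the least abundant the inhibitor gene PGRP-LF. PGRP-SC2 averaged 86.4 ± 14.6 TPM and PGRP-LF 4.88 ± 0.107 TPM (SD, n = 2). Between them, in falling order of the mean, came PGRP-SB1, PGRP-LA, PGRP-SA, PGRP-SD, PGRP-LE, PGRP-LB, PGRP-LC and PGRP-SB2. Of the 9 pairs of neighbours in this order, 7 had overlapping ranges over the libraries. The ranges were apart between PGRP-SA and PGRP-SD and between PGRP-LE and PGRP-LB.

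**Figure D1:**
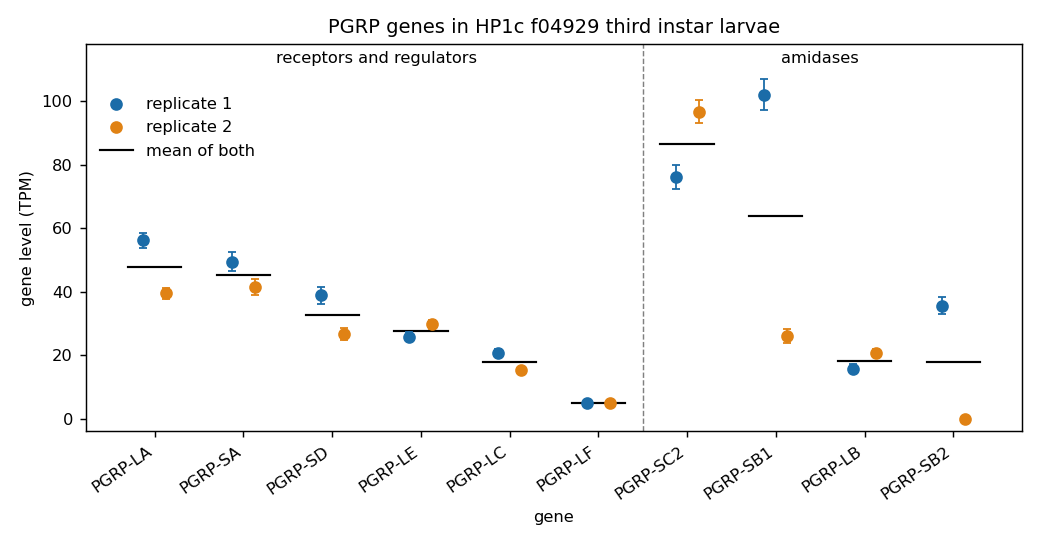
Gene level in TPM (vertical axis) of each PGRP gene in replicate 1 (blue) and replicate 2 (orange), with exact Poisson 95% intervals for counting error and the mean as a black line. PGRP-SB1 stood at 102 and 25.9 TPM and PGRP-SB2 at 35.5 and 0 TPM, while the libraries lay closer for the other genes.

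Among the secreted recognition proteins, PGRP-SA was the more abundant. PGRP-SA binds lysine-type peptidoglycan in the haemolymph and starts the Toll cascade with the partner protein GNBP1. Its gene (FBgn0030310, X, 11561643 to 11562779, plus strand, BDGP6 coordinates throughout) stood at 49.3 TPM in replicate 1 (1019 reads, exact Poisson 95% interval 46.4 to 52.5) and 41.4 TPM in replicate 2 (1119 reads, 39.0 to 43.9). Replicate 1 was slightly the higher, with a ratio of scaled reads, replicate 1 over replicate 2, of 1.18 (exact Clopper-Pearson 95% interval 1.08 to 1.28). Scaled by total reads only, the ratio was 1.03 (0.950 to 1.13), so this difference depended on the scaling. These intervals cover counting error only. Nearly all of the signal came from the shorter transcript PGRP-SA-RB, with 98.9% and 98.8% of the TPM of the gene. Both of its transcripts encode the same 203 codons, so they differ in the untranslated part.

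PGRP-SD is a secreted protein that helps recognise some Gram-positive bacteria and has also been linked to IMD signalling. The gene (FBgn0035806, 3L, 7651180 to 7651900, plus strand) has a single exon and encodes 186 codons. It stood at 38.8 TPM (789 reads) in replicate 1 and 26.6 TPM (709 reads) in replicate 2, a ratio of 1.44 (1.30 to 1.60). The SD over the libraries was 8.60 TPM around a mean of 32.7. Within a library PGRP-SD came to 0.786 of the PGRP-SA level in replicate 1 and 0.643 in replicate 2. An exon of CG7492 overlaps PGRP-SD on the opposite strand, by 35 of its 721 bases. CG7492 had 17.6 TPM in replicate 1 and 17.4 in replicate 2, and whether the libraries kept strand is not stated, so reads of the overlap cannot be assigned with certainty.

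The receptors of the IMD pathway were moderately expressed, and the intracellular sensor gene exceeded the membrane receptor gene in both libraries. PGRP-LC encodes the transmembrane receptor for DAP-type peptidoglycan (FBgn0035976, 3L, 9338810 to 9348336, plus strand). It stood at 20.7 TPM (1308 reads) in replicate 1 and 15.2 TPM (1271 reads) in replicate 2, a ratio of 1.33 (1.23 to 1.44). PGRP-LE, which senses DAP-type fragments inside the cell (FBgn0030695, X, 15801153 to 15803880, minus strand), stood at 25.8 TPM (1162 reads) in replicate 1 and 29.6 TPM (1772 reads) in replicate 2. Its ratio of 0.849 (0.788 to 0.915) ran the other way. PGRP-LE thus reached 1.24 times the PGRP-LC level in replicate 1 and 1.95 times in replicate 2. Of the PGRP-LE signal, 96.6% and 95.5% were assigned to PGRP-LE-RA, and both transcripts of the gene encode the same 345 codons.

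PGRP-LF is a membrane protein that binds PGRP-LC and damps IMD signalling. The gene (FBgn0035977, 3L, 9349609 to 9351489, plus strand) stood at 4.96 TPM (212 reads) in replicate 1 and 4.81 TPM (271 reads) in replicate 2. The libraries did not differ beyond counting error, with a ratio of 1.01 (0.842 to 1.22). Set against the receptor it inhibits, PGRP-LF came to 0.239 of the PGRP-LC level in replicate 1 and 0.317 in replicate 2. UGP, on the opposite strand, has an exon overlap of 645 bases with PGRP-LF, whose transcript has 1355 bases. UGP stood at 18.7 and 20.3 TPM, so some reads of either gene may belong to the other.

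PGRP-LA, described as a regulator of IMD signalling in barrier epithelia, was the most abundant gene of the receptor and regulator class by mean (47.8 ± 11.8 TPM, SD, n = 2). It lies beside PGRP-LC (FBgn0035975, 3L, 9334332 to 9338336, plus strand) and stood at 56.2 TPM (2195 reads) in replicate 1 and 39.4 TPM (2085 reads) in replicate 2. Its ratio was 1.36 (1.28 to 1.45). The level was 2.71 times that of PGRP-LC in replicate 1 and 2.60 times in replicate 2.

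PGRP-LA, PGRP-LC and PGRP-LF form a row on 3L, all on the plus strand, with 473 bases between PGRP-LA and PGRP-LC and 1272 between PGRP-LC and PGRP-LF. Levels in this row differed by gene, and the PGRP-LA to PGRP-LC relation varied little between libraries (2.65 ± 0.0781, SD, n = 2). GluRIB, the nearest measured gene before PGRP-LA, stood at 0.382 and 0.434 TPM. CG32040, the nearest after PGRP-LF, stood at 0.232 and 0.106 TPM.

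**Figure D2:**
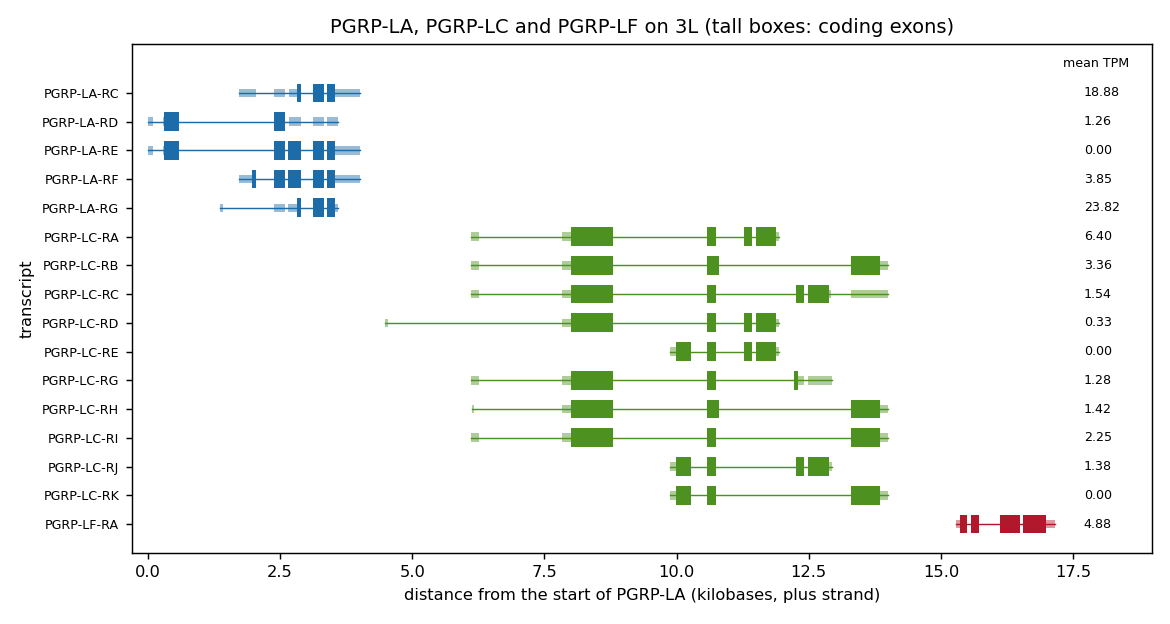
Annotated transcripts of PGRP-LA (blue), PGRP-LC (green) and PGRP-LF (red) by distance from the start of PGRP-LA in kilobases, with exons as boxes, coding exons taller, and the mean TPM of the libraries at the right. Most PGRP-LC transcripts begin with the same coding exon, and all split into alternative last coding exons.

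Isoforms of PGRP-LC are known to differ in the extracellular domain that meets peptidoglycan, forms called LCx, LCa and LCy. The annotation does not pair those names with its transcripts, so the 10 transcripts were grouped by where their coding sequence ends. Those ending at 9346205 (PGRP-LC-RA, PGRP-LC-RD and PGRP-LC-RE) took 37.1% of the PGRP-LC signal in replicate 1 and 37.9% in replicate 2. Those ending at 9348172 (PGRP-LC-RB, PGRP-LC-RH, PGRP-LC-RI and PGRP-LC-RK) took 40.7% and 37.0%. Those ending at 9347215 (PGRP-LC-RC and PGRP-LC-RJ) took 14.8% and 18.4%, and PGRP-LC-RG, whose coding sequence stops at 9346623 after 345 codons, took 7.44% and 6.65%. The first and second groups were thus the larger in both libraries, and their order changed between them.

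The single most abundant PGRP-LC transcript was PGRP-LC-RA, which encodes 500 codons, at 7.43 TPM in replicate 1 and 5.37 TPM in replicate 2. PGRP-LC-RB, with 520 codons, followed at 3.86 and 2.85 TPM. Transcripts that begin at 9344200, downstream of the usual coding start at 9342328, took 7.39% and 8.14% of the signal, all of it from PGRP-LC-RJ. PGRP-LC-RE and PGRP-LC-RK, from the same start, had 0 reads in both libraries. Of the 31 PGRP transcripts, 27 had a mean of at least 10 reads, and 6 of these were 2-fold apart, 4 towards replicate 1 and 2 towards replicate 2. Of all 23649 transcripts tested, 19.4% were, 10.5% towards replicate 1 and 8.94% towards replicate 2, so single isoforms varied more than genes throughout. PGRP-LC-RI was the one PGRP-LC transcript among the 6, at 3.07 and 1.42 TPM in replicates 1 and 2 (ratio 2.07, 1.65 to 2.62). It differs from PGRP-LC-RB in having 501 rather than 520 codons, and the interval does not cover error in sharing reads between such similar forms.

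Most of the PGRP-LA signal was assigned to transcripts with the shortest annotated coding sequence. PGRP-LA-RC and PGRP-LA-RG share a coding sequence of 138 codons and took 88.1% of the PGRP-LA TPM in replicate 1 and 91.0% in replicate 2. PGRP-LA-RG stood at 29.3 and 18.4 TPM, and PGRP-LA-RC at 20.2 and 17.5 TPM. PGRP-LA-RF, with 299 codons, stood at 5.59 TPM in replicate 1 and 2.11 TPM in replicate 2, and was 2.55-fold (2.08 to 3.14) higher in replicate 1. PGRP-LA-RC and PGRP-LA-RF, of 1593 and 1606 bases, both have 5 exons and end at 9338336. How reads are shared between such similar forms is uncertain, and the interval does not cover it. The longest form, PGRP-LA-RE with 368 codons, had 0 reads in both libraries, and PGRP-LA-RD, with 173 codons, stood at 1.09 and 1.44 TPM. By reads in place of TPM the longer PGRP-LA-RC leads, with 1036 and 1182 reads against 827 and 683 for PGRP-LA-RG.

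**Figure D3:**
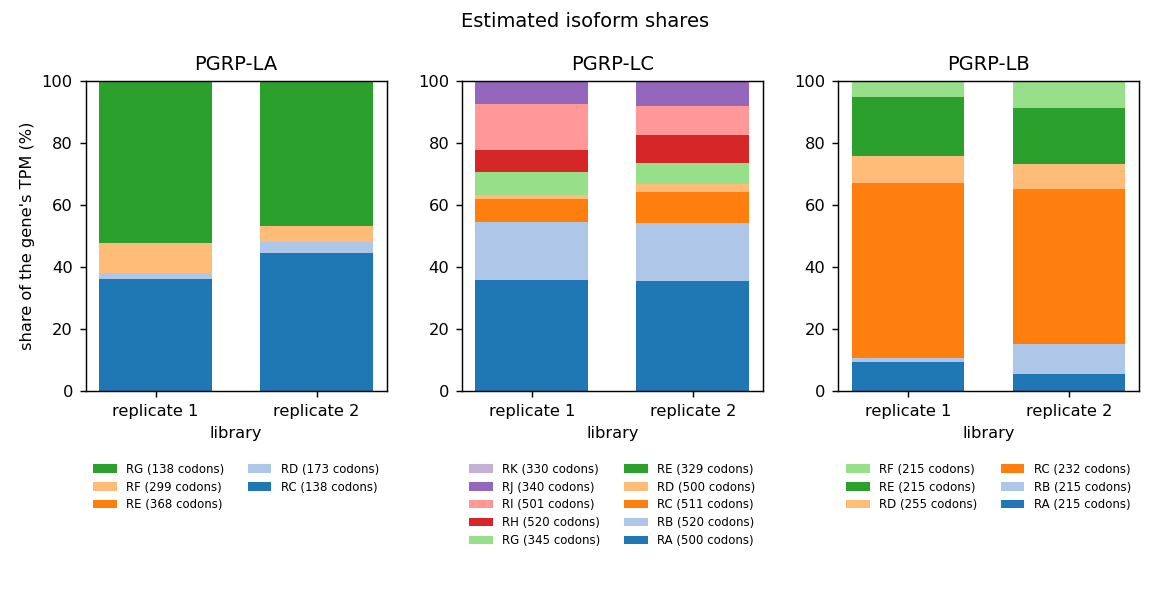
Share of each gene's TPM (vertical axis, percent) assigned to each transcript of PGRP-LA, PGRP-LC and PGRP-LB in both libraries, with the coding length in codons in the legend. Transcripts of 138 codons fill 88.1% and 91.0% of the PGRP-LA bars, and PGRP-LB-RC is the largest part of the PGRP-LB bars at 56.4% and 49.8%.

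The amidase genes ranged from 15.7 to 102 TPM in replicate 1 and from 0 to 96.7 TPM in replicate 2. The range of the receptors and regulators was 4.96 to 56.2 TPM and 4.81 to 41.4 TPM. PGRP-LB degrades DAP-type peptidoglycan and so limits IMD signalling (FBgn0037906, 3R, 11452849 to 11460552, minus strand). It stood at 15.7 TPM (556 reads) in replicate 1 and 20.5 TPM (952 reads) in replicate 2, a ratio of 0.756 (0.680 to 0.840). Its level was 0.757 of that of PGRP-LC in replicate 1 and 1.35 times that of PGRP-LC in replicate 2. The gene has 6 transcripts from several starts that share their coding end. PGRP-LB-RC, with 232 codons, took 56.4% and 49.8% of the signal. The transcripts of 215 codons (PGRP-LB-RA, PGRP-LB-RB, PGRP-LB-RE and PGRP-LB-RF) took 34.8% and 42.1%, and PGRP-LB-RD, with 255 codons and the most distant start, 8.82% and 8.20%.

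Among the PGRP-LB forms of 215 codons, PGRP-LB-RB had 7.69 reads in replicate 1 and 87.3 in replicate 2, and PGRP-LB-RF 31.2 and 91.0. Both were at least 2-fold higher in replicate 2, with ratios of 0.117 (0.0489 to 0.240) and 0.433 (0.278 to 0.657). Of all transcripts tested, 8.94% were 2-fold apart towards replicate 2. PGRP-LB-RA, with a ratio of 1.25 (0.826 to 1.88), and PGRP-LB-RE, with 0.783 (0.587 to 1.04), were not 2-fold apart. All forms of 215 codons span the same coordinates, so the split of reads among them is an estimate. Its error lies outside these counting intervals. These forms encode one protein and differ outside the coding sequence.

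PGRP-SC2, an amidase known from the gut, lies on 2R (FBgn0043575, 8716950 to 8717695, plus strand) and has a single exon of 184 codons. It stood at 76.1 TPM (1615 reads) in replicate 1 and 96.7 TPM (2689 reads) in replicate 2, a ratio of 0.777 (0.730 to 0.827). The 12 gut enzyme genes summed to 25139 and 35407 TPM in replicates 1 and 2. Of these, 11 were likewise lower in replicate 1, and 0 of 12 were 2-fold apart. Of all genes tested, 47.1% had log2 ratios above 0 and 5.42% were 2-fold apart. PGRP-SC2 and the gut list thus lay on the same side, and any part of the gut in the PGRP-SC2 value was not tested.

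PGRP-SB1 and PGRP-SB2 gave the largest differences among the 10 members. PGRP-SB1 is an amidase active on DAP-type peptidoglycan (FBgn0043578, 3L, 16727299 to 16727989, minus strand, 190 codons). It stood at 102 TPM (1721 reads) in replicate 1 and 25.9 TPM (571 reads) in replicate 2, a ratio of 3.90 (3.55 to 4.30). It ranked first of the family in replicate 1 and sixth in replicate 2. Against PGRP-SC2, PGRP-SB1 came to 1.34 times its level in replicate 1 and 0.268 of it in replicate 2.

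PGRP-SB2, classed as an amidase by sequence (FBgn0043577, 3L, 16726541 to 16727288, plus strand), stood at 35.5 TPM in replicate 1 from 680.0 reads, of which 677 went to PGRP-SB2-RA with 182 codons. In replicate 2 it had 0 reads. A count of 0 there allows up to 3 reads, or 0.12 TPM, and against that floor PGRP-SB2 was at least 293-fold higher in replicate 1, taking the 680.0 reads as they stand. With counting error in both libraries included, the lower limit of the exact interval was 238-fold. In replicate 1 its level was 0.348 of that of PGRP-SB1 and lay at the 81.1th percentile of all genes.

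PGRP-SB2 and PGRP-SB1 lie tail to tail with 10 bases between their annotated ends. The flanking genes did not share one pattern. Dbp73D, past PGRP-SB1, had 365 and 449 reads (ratio 1.05, 0.914 to 1.21). CG13026, past PGRP-SB2, had 16 reads in replicate 1 and 0 in replicate 2, too few to count under the minimum of 10 reads on average. The lower limit of its ratio was 4.99, so it lay on the same side as PGRP-SB2.

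A gene was counted as different when it had at least 10 reads on average, a ratio of at least 2 in either direction and an interval without 1. All 10 members had enough reads, and 2 of them (PGRP-SB1 and PGRP-SB2) differed, each higher in replicate 1. Of all 12206 genes tested, 5.42% differed, 4.10% towards replicate 1 and 1.32% towards replicate 2. The ratio was known when the family was chosen, so nothing is read from the count. The other 8 members had log2 ratios of -0.40 to 0.53, and their summed level was 288 TPM in replicate 1 and 274 TPM in replicate 2. PGRP-SB1 and PGRP-SB2 alone summed to 137 and 25.9 TPM. The median log2 ratio over all members was 0.33, beside -0.02 for all genes tested.

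**Figure D4:**
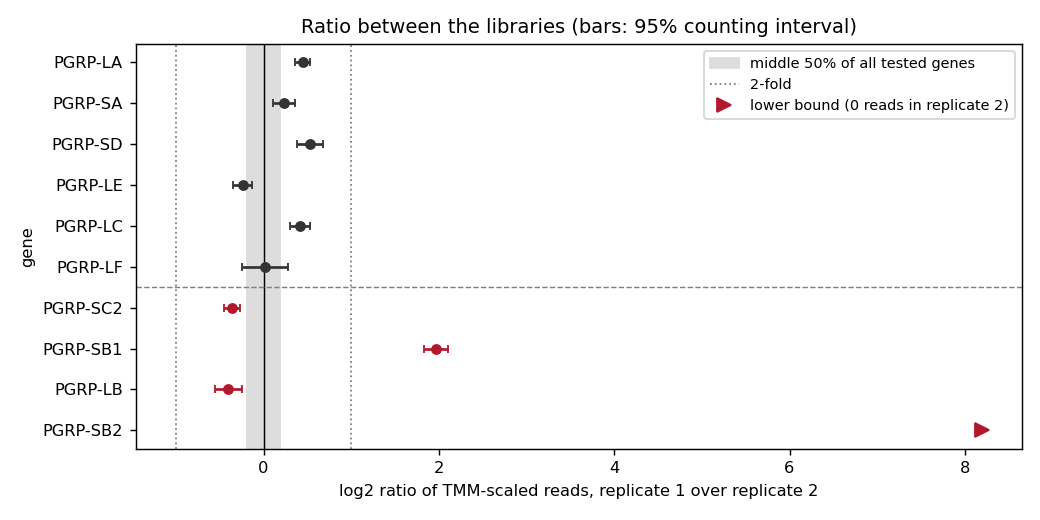
Log2 ratio of scaled reads, replicate 1 over replicate 2 (horizontal axis), for the receptors and regulators (black) and the amidases (red), with exact 95% counting intervals; the grey band spans the middle 50% of all tested genes, -0.19 to 0.19. PGRP-SB1 lies past 2-fold and PGRP-SB2 is drawn as a lower bound, while the remaining genes lie within 2-fold.

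Receptors and regulators were then set against amidases. The summed level of the 6 receptor and regulator genes was 196 TPM in replicate 1 and 157 TPM in replicate 2. That of the 4 amidase genes was 229 TPM and 143 TPM. The ratio of receptors to amidases was 0.854 in replicate 1 and 1.10 in replicate 2 (0.976 ± 0.172, SD, n = 2), so in TPM the order of the classes changed between the libraries. In reads, which are not divided by length, the ratio was 1.46 and 1.72, with the receptors and regulators the higher in both. Without PGRP-SB1 and PGRP-SB2, a choice made after the data were seen, the ratio was 2.13 and 1.34. Genes within a class are not replicates, and no test between the classes was made.

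Within the class of receptors and regulators PGRP-LA and PGRP-SA took the most of the signal in both libraries, whereas the leading amidase gene changed. Among the receptors and regulators, PGRP-LA took 28.7% and 25.1% of the class sum in replicates 1 and 2, PGRP-SA 25.2% and 26.4%, PGRP-SD 19.8% and 16.9% and PGRP-LE 13.2% and 18.9%. PGRP-LC took 10.6% and 9.66% and PGRP-LF 2.53% and 3.06%. Among the amidases, PGRP-SB1 led in replicate 1 with 44.5% and took 18.1% in replicate 2. PGRP-SC2 took 33.2% in replicate 1 and led in replicate 2 with 67.6%. Log2 ratios of the receptors and regulators ran from -0.24 to 0.53 with a median of 0.33. Of these 6 genes, 0 were 2-fold apart, near the 5.42% of all genes tested. The amidase median was 0.80 over 4 genes, 2 on either side of 0.

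The remaining 3 genes of the family were weakly expressed. PGRP-SC1a and PGRP-SC1b, neighbours of PGRP-SC2 that encode near-identical amidases, showed opposite patterns. PGRP-SC1a had 13.1 reads in replicate 1 and 129 in replicate 2, and PGRP-SC1b 45.9 and 6.61. How reads are shared between such copies is uncertain, so their sum is the safer value, 59.0 reads in replicate 1 and 136 in replicate 2 (ratio 0.562, 0.406 to 0.768). This sum lay on the same side as PGRP-SC2. PGRP-LD stood at 2.52 and 3.26 TPM from 2 of its 4 annotated transcripts.

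The listed IMD and Toll pathway genes, which PGRPs act upon, had no member 2-fold apart, which in lists of 25 is near the 5.42% of all genes tested. Of 25 IMD pathway genes, all had enough reads and 0 were 2-fold apart, with a median log2 ratio of 0.07 (-0.11 when scaled by total reads only) and a range of -0.30 to 0.65. The most abundant were genes of ubiquitin-conjugating enzymes and an enzyme variant, eff at 467 and 425 TPM in replicates 1 and 2, ben at 251 and 237 TPM and Uev1A at 212 and 215 TPM. Rel, the NF-κB factor of the pathway, had 50.7 and 48.0 TPM, and the adaptor gene imd 24.8 and 16.8 TPM. The gene of the PGRP-LC inhibitor Pirk, pirk, stood at 20.5 and 17.4 TPM.

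Of 25 Toll pathway genes, 0 were 2-fold apart (5.42% of all genes tested were), with a median log2 ratio of 0.19 and a range of -0.74 to 0.62. The most abundant were Pli, which encodes Pellino, at 102 and 66.5 TPM in replicates 1 and 2, the protease gene spirit at 97.2 and 65.9 TPM and GNBP3, which recognises fungal glucans, at 82.3 and 69.0 TPM. GNBP1, the partner of PGRP-SA, stood at 17.1 and 14.0 TPM. The Toll ligand gene spz stood at 13.6 and 10.5 TPM.

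The other recognition and lysozyme list held 23 genes, of which 22 had enough reads. Of these, 1 (4.55%), LysP, was 2-fold apart, near the 5.42% of all genes tested. LysP stood at 3.62 TPM in replicate 1 and 0.876 TPM in replicate 2 (ratio 4.09, 2.41 to 7.25). The list median was -0.24, beside -0.02 for all genes tested. Its most abundant genes, the gut lysozymes LysD, LysS and LysB, stood at 1895 and 3086 TPM, 1455 and 2669 TPM, and 1137 and 1482 TPM. The lysozymes are a family of close copies, so reads may be shared between them.

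Antimicrobial peptide genes are main outputs of both pathways. Of 34 such genes, 22 had enough reads, and 68.2% of these were 2-fold apart, beside 5.42% of all genes tested. Of the 22, 13 lay past 2-fold towards replicate 1, namely Drs, Drsl2, Drsl5, DptA, AttA, AttB, CecA1, CecA2, Dro, Def, Mtk, edin and BomT3. BomS3 and BomT2 lay past 2-fold towards replicate 2, and the list median was 1.54. Several of these genes had few reads in replicates 1 and 2, such as CecA1 (21.5 and 4), CecA2 (20.5 and 2), BomT3 (25 and 13) and BomS3 (16 and 61). How reads were split between AttA and AttB, and between CecA1 and CecA2, is an estimate. DptA, a standard IMD readout, stood at 20.3 TPM in replicate 1 and 2.17 TPM in replicate 2, and Drsl5 and Drsl2 at 1764 and 29.5 TPM and at 630 and 12.4 TPM. Drs, a standard Toll readout, stood at 441 and 96.1 TPM.

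**Figure D5:**
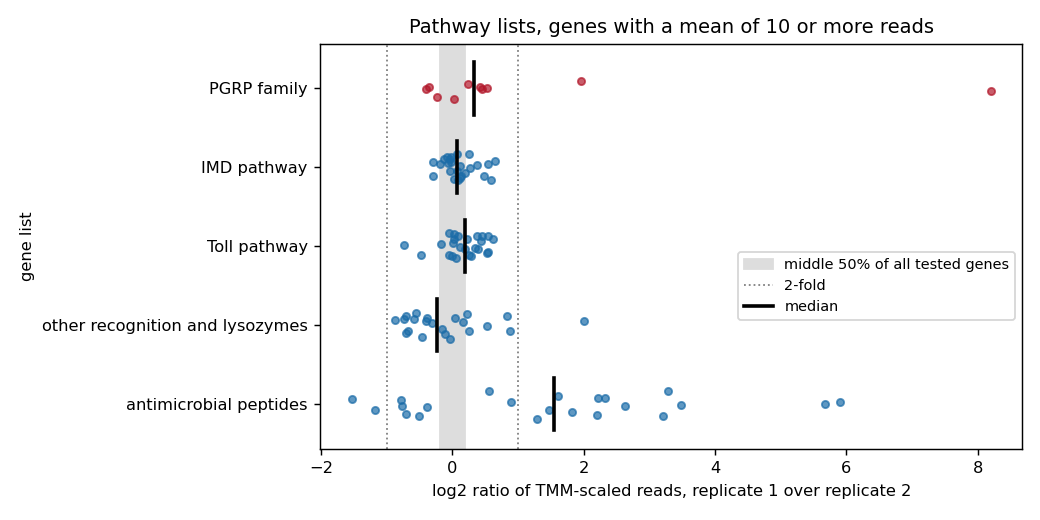
Log2 ratio of scaled reads, replicate 1 over replicate 2, of each gene with enough reads (points) in the PGRP family and the pathway lists, with medians as black bars and PGRP-SB2 at its lower bound. The IMD and Toll genes lie within 2-fold, and the antimicrobial peptide genes spread from -1.53 to 5.91.

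Some markers of stage and tissue, mainly salivary gland and Eig71E genes, also differed between the libraries. The 10 salivary gland genes summed to 47070 TPM (replicate 1) and 93650 TPM (replicate 2), with 8 of 9 tested genes lower in replicate 1, and 2 of them (Sgs3 and Sgs4) past 2-fold. Of all genes tested, 47.1% had log2 ratios above 0, and 1.32% were 2-fold apart towards replicate 2. Of the 11 Eig71E genes, a cluster induced by the moulting hormone ecdysone, 7 had enough reads and 6 of these were at least 2-fold higher in replicate 1, beside 4.10% of all genes tested. The sums were 3732 and 4735 TPM, most of it from Eig71Ee, the tested gene that was not higher in replicate 1. Eig71Ee ran the other way, at 2405 and 4701 TPM, just short of 2-fold (ratio 0.502, 0.499 to 0.505). In replicate 1, 2 of the 11 genes were at 0 (Eig71Eh and Eig71Ej), and in replicate 2, 4 were (Eig71Ef, Eig71Eh, Eig71Ei and Eig71Ek), of which Eig71Ef had 59.0 TPM in replicate 1. The fat body list summed to 36464 and 30336 TPM, with 0 of 6 genes 2-fold apart, the trachea list to 280 and 199 TPM with 0 of 5 and the haemocyte list to 264 and 300.3 TPM with 0 of 10. The muscle list summed to 1997 and 1849 TPM, with 1 of 8 genes (Mhc) 2-fold higher in replicate 1. The gut and neuron lists had 0 of 12 and 0 of 5 genes 2-fold apart, beside 5.42% of all genes tested. Any part of these stage and tissue markers in the PGRP values was not tested.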

How the data were processed

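Per the file headers, the authors deposited for each of 2 libraries a table of FlyBase transcripts with TPM and estimated counts. Tools listed without a role in the submitters' processing notes are STAR 2.5.2, HTSeq 0.6.1, bcl2fastq 2.18.0.12, Picard and FastQC. The quantifier, the build and the gene models are not stated. Of 30119 entries, 29992 matched the Ensembl release 115 annotation of BDGP6 by identifier, and the lengths of all 31 PGRP transcripts were equal in both. The 127 unmatched entries held 0.0981% and 0.110% of the reads. Values of a gene are sums over its transcripts.

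Estimated counts were rounded and scaled with TMM factors (edgeR 4.0.16, R 4.3.3). The biological coefficient of variation between the libraries was 25.3%, and it includes any technical spread between them. Ratios are replicate 1 over replicate 2. Log2 ratios had 0.5 reads added. The floor of 3 reads served the bound given for PGRP-SB2, in the text and figures. Calls and the medians in the text did not use it. Intervals (95%, scipy 1.17.1) cover counting error only. They treat reads as independent molecules, so they may be too narrow where no molecular identifier was used. The ratio step was tested on simulated data. With 1 group there is no test between groups and no p-value. Library size alone, DESeq2 1.42.0 size factors, other filters, folds and units were tried as alternatives.

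The members and the gene lists were chosen with earlier results of these data known. The text names all members and their transcripts, the other PGRP genes, flanking and overlapping genes, and, of each pathway list, genes 2-fold apart and the 3 most abundant. Rel, imd, pirk, GNBP1 and spz were added for their roles after their values were seen. No sequence was used here, so promoter motifs and protein features were not analysed.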

Additional observations from a re-analysis of the deposited data

How the results depend on the processing

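Scaled by total reads only, the median log2 ratio of all tested genes moved by -0.19 and that of the PGRP genes to 0.14. PGRP-LF then changed side to -0.17 and the IMD list median to -0.11, while the other 9 members kept theirs. The PGRP-SA ratio came to 1.03 (0.950 to 1.13), with an interval that covers 1. The Toll median came to 0.0015. The 2 members at least 2-fold apart became 1 at a 4-fold threshold (PGRP-SB2), beside 1.66% of all genes tested. As single transcripts they became 6 of 27 (4 higher in replicate 1, 2 in replicate 2), beside 19.4% of all transcripts tested. With PGRP-SC1a, PGRP-SC1b and PGRP-LD, a set added after the data were seen, the count was 4 of 13, beside 5.42% of all genes tested. The count was 2 under the other alternatives run, where the share of all genes tested ranged from 3.7% to 12.2% (at 1.5-fold). Single transcripts gave a median log2 ratio of 0.12, and leaving out PGRP-SB1 and PGRP-SB2, also added later, gave 0.13. The receptor to amidase ratio was 0.976 and ranged from 0.854 to 1.10 with each library alone. It was 1.59 in reads not divided by length (1.46 and 1.72 in replicates 1 and 2), 0.688 without PGRP-LF and PGRP-LA, 2.33 without PGRP-SC2 (1.28 and 3.38 in replicates 1 and 2) and 1.74 without PGRP-SB1 and PGRP-SB2, so it depends on which genes are counted. With TPM rescaled without ribosomal RNA, PGRP-LF stood at 5.13 TPM, and the other levels moved by less than their SD. Of 25 isoform shares, 13 moved by more than their SD when taken over reads. No paired analysis was possible because a second group was not analysed here.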
